A study of Mus musculus with 85 samples.

Results

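Mouse blastocysts that developed in medium without pyruvate were compared with blastocysts that developed in medium without lactate, by RNA sequencing of whole preimplantation embryos. The comparison rests on 9 of the 85 libraries of the series, chosen by their titles: 5 libraries of no pyruvate blastocysts and 4 of no lactate blastocysts. All were wild type embryos of the B6C3F1/J strain, collected 114 h after the hCG injection that times ovulation. The complete medium, KSOM, held lactate at 5 mM with pyruvate and glucose at 0.2 mM each. No pyruvate embryos therefore still had lactate and glucose, and no lactate embryos still had pyruvate and glucose. In addition, 4 libraries of standard blastocysts, grown in complete KSOM to the same age, show where each gene lies in complete medium. Another 4 libraries, of standard early 32-cell embryos at 90 h, mark an earlier stage. The submitters' descriptions of the standard blastocyst libraries carry the tag PVA, which those of the other groups used here lack. Whether the tag marks a further difference in medium was not tested. Libraries were made with Smart-seq2, an oligo(dT)-primed method that amplifies full-length cDNA. The number of embryos and cultures behind a library is not given in the sources used here, so a p-value here sets a difference against the spread among libraries and that spread may be technical.

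Pyruvate and lactate are interconverted by lactate dehydrogenase, which couples the reaction to the cytosolic balance of NAD+ and NADH. Making pyruvate from lactate gives NADH. Pyruvate enters mitochondria through a dedicated carrier and feeds the TCA cycle through pyruvate dehydrogenase, while shuttles move reducing equivalents across the inner membrane. Early cleavage in the mouse relies on pyruvate, and glucose becomes usable as an energy source from compaction onwards. By the blastocyst stage the embryo has an outer trophectoderm, which pumps fluid and forms the placenta, and an inner cell mass that sorts into epiblast and primitive endoderm.

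Trophectoderm, epiblast and primitive endoderm markers were detected in all 3 blastocyst groups, with summed levels of 21484 to 22839.6, 7617 to 9676 and 1466 to 1835 CPM in no pyruvate blastocysts, against 17569.9 to 21665, 9898 to 12145 and 831 to 1113 CPM in no lactate blastocysts and 35505 to 51923, 14061 to 19351 and 1630.2 to 2575 CPM in standard blastocysts. Trophectoderm and epiblast sums of both groups lay below every standard library. Single genes led the epiblast and primitive endoderm sums: Dppa5a reached 7037 CPM in no pyruvate and 10375 CPM in no lactate blastocysts, and Dab2 reached 942 and 894 CPM. Under 1 CPM were 1 of 22 primitive endoderm markers in no pyruvate blastocysts and 6 in no lactate blastocysts, with 4 in standard blastocysts. CPM scales every library to the same total. Markers of cells that could be carried along were near 0 in both groups, although higher in no pyruvate libraries. The 12 cumulus and granulosa cell markers summed to at most 8.45 CPM, the 7 sperm markers measured to at most 1.70 CPM and the 6 blood cell markers measured to at most 4.22 CPM in any no pyruvate library, against at most 2.36, 0.216 and 2.24 CPM in any no lactate library. In no pyruvate libraries 7 cumulus and granulosa cell markers and 4 sperm markers were at 0 throughout, against 8 and 2 in no lactate libraries. Read depth, in mega-reads (M reads), differed between the groups without overlap, at 10.5 to 17.1 M reads in no pyruvate blastocysts and 17.4 to 28.2 M reads in no lactate blastocysts, with 24.7 to 32.6 M reads in standard blastocysts. Despite fewer reads, 13869 to 14130 genes lay above 1 CPM in no pyruvate blastocysts, against 11424 to 11761 in no lactate and 11334 to 11959 in standard blastocysts. The part of depth in the results was not tested. One standard library stood apart: standard blastocyst library 4 had rank correlations of 0.963 to 0.978 with the no lactate libraries and 0.959 to 0.967 with the other standard libraries, as a description across 14313 genes, so standard values are given per library where they matter.

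RNA in no pyruvate blastocysts was spread over more genes. The 100 highest genes of a library held 23.2, 25.2, 24.3, 25 and 24.8% of all CPM in no pyruvate blastocysts, against 42.6, 41.1, 40.3 and 42.2% in no lactate blastocysts and 40, 43, 42.2 and 44.2% in standard blastocysts. The means were 24.5 ± 0.794% (SD, n = 5) and 41.5 ± 1.01% (SD, n = 4), and the difference of -17 percentage points had an exact two-sided permutation p of 0.0159, the smallest that 5 against 4 libraries can give (0.0238 adjusted over the 3 library-wide measures tested). No library of one group lay within the range of the other. CPM sum to a fixed total, so a smaller share for the most abundant RNAs goes with a larger one for the rest. The median gene was 1.11 higher on the log2(CPM + 1) scale. Of 14313 genes tested with limma (Benjamini-Hochberg adjusted p under 0.05), 12701 passed (88.7%), 11549 of them higher (80.7%) and 1152 lower (8.05%), and the groups did not overlap for 11665 genes (81.5%). The number of calls and the direction of many depended on the scale. With libraries scaled by the median of gene ratios, 3974 genes were higher (28.9% of 13765 tested) and 3654 lower (26.5%), and 996 of the genes called higher on the deposited scale were called lower. Against standard blastocysts, a control that both comparisons share, 12588 genes (87.9%) passed in no pyruvate blastocysts, 11566 of them higher (80.8%) and 1022 lower (7.14%), and 3330 genes (23.3%) passed in no lactate blastocysts, 2001 of them higher (14%) and 1329 lower (9.29%). After median-ratio scaling these splits were 4142 higher and 3905 lower for no pyruvate, and 1699 higher and 2038 lower for no lactate, against standard blastocysts.

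Changes are given below on the deposited scale, and a gene is said to stand on all 4 scales when limma called it in one direction on deposited CPM, after median-ratio scaling, after quantile scaling and after removal of a trend with gene length. That held for 2348 genes as higher (16.4%) and 1013 as lower (7.08%), and the count in each gene list is read against these shares. A count on the deposited scale is read against 80.7% of all genes higher and 8.05% lower. Of the 1152 genes lower on the deposited scale, 1151, 1066 and 1097 stayed lower after median-ratio scaling, quantile scaling and length correction. Of the 11549 higher, 3971, 3607 and 3604 stayed higher. For a fall the criterion therefore adds little to the deposited call. The shift varied with level: the median log2 change was 0.67 for genes under 1 CPM, 0.93 between 1 and 3 CPM, 1.45 for genes between 7 and 15 CPM, 0.55 between 127 and 255 CPM and -0.57 above 1023 CPM. Gene length moved with it too, at 0.57 among genes of up to 1789 bases and 1.30 among genes of at least 6031 bases. The plot of change against level shows where the main gene groups lie on this curve.

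**Figure D1:**
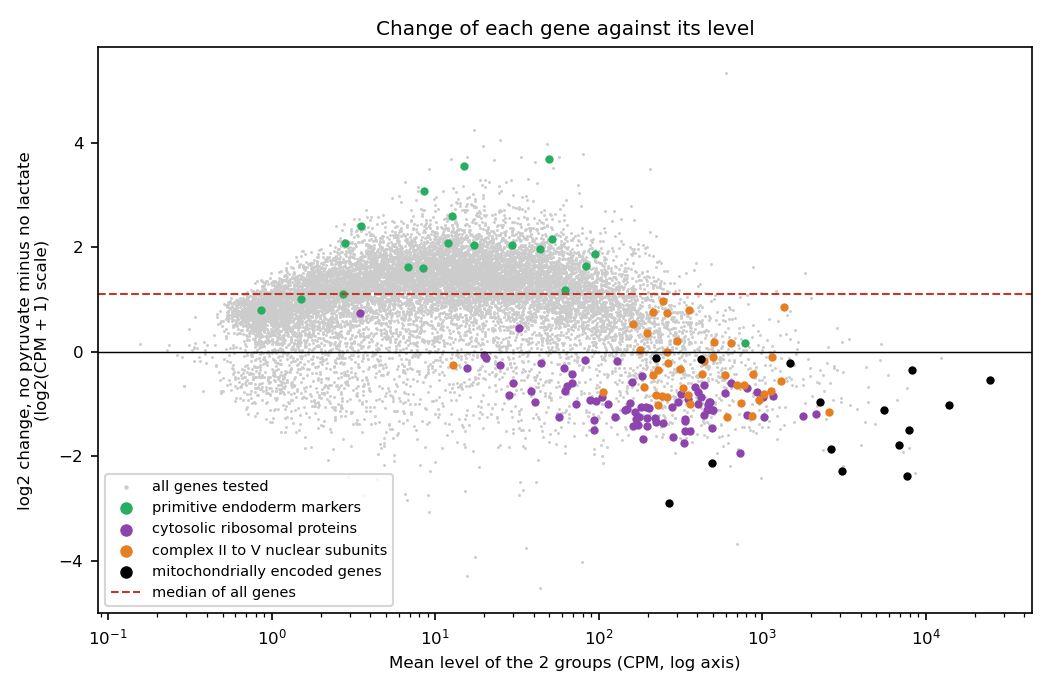
Log2 change of each of 14313 genes (no pyruvate minus no lactate blastocysts, log2(CPM + 1) scale) against its mean CPM over both groups on a log axis, with 4 gene lists in colour and the median of all genes, 1.11, as a dashed line. Called lower were 69 of 80 ribosomal protein genes, 9 of 15 mitochondrially encoded genes and 24 of 42 subunits of complexes II to V. Of the 20 primitive endoderm markers tested, 19 were called higher. Of all genes 80.7% were called higher and 8.05% lower.

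Messages for the cytosolic ribosome, the machine that makes all cytosolic proteins, were lower in no pyruvate blastocysts. Of the 80 ribosomal protein genes tested, 69 were lower and 2 higher on the deposited scale. On all 4 scales 66 were lower and 0 higher (82.5% lower, against 7.08% of all genes). These shares were not matched for level. Of all genes, 33.5% were lower between 255 and 511 CPM and 61.9% above 1023 CPM on the deposited scale. Their median log2 change was -1 on the deposited scale and -2.23, -1.53 and -1.90 after median-ratio scaling, quantile scaling and length correction. Rpl32, a protein of the large subunit, was at 325, 289, 268, 233 and 389 CPM in no pyruvate blastocysts, against 1105, 1239, 1438 and 858 CPM in no lactate blastocysts. Rpl32 was at 622, 482, 858 and 1191 CPM in standard blastocysts, above every no pyruvate library and overlapping the no lactate range. All no pyruvate libraries were low (log2 change -1.94, SE 0.23, adjusted p = 3e-07 by limma, and between -3.18 and -1.82 on the rescaled values). Rps26, of the small subunit at the mRNA exit channel, was at 159, 142, 141, 119 and 187 CPM in no pyruvate blastocysts, against 512, 585, 644 and 319 CPM in no lactate blastocysts (log2 change -1.74, SE 0.27, adjusted p = 8.9e-06). Rps2, another small subunit protein, was at 109.7, 43.9, 67.9, 152 and 93.7 CPM in no pyruvate blastocysts, against 208, 344, 294 and 283 CPM in no lactate blastocysts, and its groups did not overlap (log2 change -1.68, SE 0.27, adjusted p = 1e-05). Many processed pseudogenes copy ribosomal protein genes, so reads of these short and near-identical sequences may be split between them.

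Of 42 ribosome biogenesis genes tested, 38 were higher and 0 lower (median 1.23, against 1.11 over all genes), and 6 were higher on all 4 scales (14.3%, against 16.4% of all genes): Bop1, Bysl, Nop16, Rrp1b, Utp15 and Wdr12, which act in processing of precursor rRNA and assembly of subunits. Of 22 translation initiation and elongation genes, 11 were higher and 6 lower. Those lower on all 4 scales were Eef1a1, Eef1d, Eef1g, Eif4a1 and Tpt1 (22.7%, against 7.08% of all genes). Eef1a1, which delivers aminoacyl-tRNA to the ribosome, was at 2207, 2339, 2287, 2139 and 2932 CPM in no pyruvate blastocysts, against 5521, 6177, 7611 and 5082 CPM in no lactate blastocysts. Standard blastocysts had Eef1a1 at 3457, 2748, 5623 and 6709.8 CPM, overlapping both other groups. Its change was -1.35 (SE 0.23, limma adjusted p = 2.1e-05) with no overlap between no pyruvate and no lactate libraries. Mitochondrial ribosomal proteins, which serve a separate ribosome inside the organelle, gave 68 higher and 1 lower of 78. On all 4 scales 3 were higher and 1 lower (3.85% and 1.28%, against 16.4% and 7.08% of all genes). Of 35 proteasome subunits, 11 were higher and 11 lower, with 1 and 7 on all 4 scales (2.86% and 20%). The aminoacyl-tRNA synthetases, which charge tRNAs, had 17 higher and 0 lower of 20 on the deposited scale, where 80.7% of all genes were higher. None of them stood on all 4 scales in either direction.

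RNAs encoded by the mitochondrial genome took up a smaller share of the library in no pyruvate blastocysts. The share was 4.12, 5.67, 5.42, 6.19 and 6.16% in no pyruvate blastocysts, against 13.3, 11, 9.05 and 13.4% in no lactate blastocysts and 1.79, 8.29, 4.59 and 10.6% in standard blastocysts. All no pyruvate libraries lay below all no lactate libraries, whereas the standard libraries ran across both. The means were 5.51 ± 0.845% (SD, n = 5) and 11.7 ± 2.08% (SD, n = 4), with 6.32 ± 3.91% (SD, n = 4) in standard blastocysts, and the difference between the first pair was -6.18 percentage points (exact permutation p = 0.0159, adjusted 0.0238). Of 15 mitochondrially encoded genes, 9 were lower and 0 higher on the deposited scale, where 8.05% of all genes were lower. mt-Atp8, mt-Co2, mt-Nd3, mt-Nd4l and mt-Rnr2 were lower on all 4 scales (33.3%, against 7.08% of all genes). Against standard blastocysts, 2 of the 15 were higher, 0 lower and 13 did not pass in no pyruvate blastocysts. In no lactate blastocysts 10 were higher than in standard blastocysts, 0 lower and 5 did not pass. The median log2 change between no pyruvate and no lactate blastocysts was -1.11 on the deposited scale. It was -2.36, -0.45 and -1.58 after median-ratio scaling, quantile scaling and length correction. Standard blastocyst library 4, which stands apart as described above, was the highest of its group in this share.

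mt-Co2, a core subunit of cytochrome c oxidase, was at 902, 1152, 953, 967 and 1355 CPM in no pyruvate blastocysts, against 5506, 5071, 4497 and 5433 CPM in no lactate blastocysts. Standard libraries had mt-Co2 at 520.1, 1657, 1662 and 4359.5 CPM, overlapping the no pyruvate range and below every no lactate library. The no pyruvate libraries lay below every no lactate library (log2 change -2.28, SE 0.37, adjusted p = 1.4e-05 by limma). mt-Nd3, a subunit of complex I, was at 49.8, 69.9, 60.2, 46.3 and 93.4 CPM in no pyruvate blastocysts, against 435, 521, 526 and 401 CPM in no lactate blastocysts. mt-Nd3 was at 9.46, 25.8, 29.3 and 299 CPM in standard blastocysts, overlapping the no pyruvate range and below every no lactate library. All no lactate libraries were above every other library, with standard library 4 nearest to them (log2 change -2.90, SE 0.58, adjusted p = 0.000131). mt-Rnr2, the large mitochondrial ribosomal RNA, was at 2048, 2023, 1913, 2546 and 3978 CPM in no pyruvate blastocysts, against 14388, 13185, 15192 and 8316 CPM in no lactate blastocysts, again with standard library 4 in the no lactate range (log2 change -2.37, SE 0.53, adjusted p = 0.000402). Standard blastocysts had mt-Rnr2 at 605, 2564, 2924 and 12879.8 CPM, overlapping both other groups. For mt-Nd4, another complex I subunit, the change of -1.78 passed on the deposited scale (limma adjusted p = 0.00116) and was -0.80 after quantile scaling, where it did not pass (adjusted p = 0.139). The groups overlapped for mt-Cytb and mt-Co1. mt-Cytb, of complex III, was at 15461, 19875, 19182, 25564 and 20241 CPM in no pyruvate blastocysts, against 32173, 29514, 21528 and 33223 CPM in no lactate blastocysts (log2 change -0.54, limma adjusted p = 0.102). mt-Co1, the catalytic subunit of cytochrome c oxidase, was at 4104, 7160.0, 6858, 7089.6 and 6041 CPM in no pyruvate blastocysts, against 16891, 4778, 2872 and 16404 CPM in no lactate blastocysts, a spread within the no lactate group wider than the difference (-0.36, limma adjusted p = 0.587).

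Nuclear subunits of complexes II to V of the respiratory chain were more often lower than higher. Of 42 genes for complexes II to V tested, 24 were lower and 7 higher, and 17 were lower and 0 higher on all 4 scales (40.5% lower, against 7.08% of all genes). Of 36 complex I subunits, 19 were higher and 5 lower on the deposited scale. After median-ratio scaling 0 were higher and 32 lower, against 0 and 39 of the 42 genes for complexes II to V. After length correction 1 complex I gene was higher and 24 lower. On all 4 scales 4 were lower (11.1%, against 7.08% of all genes): Ndufa5, Ndufa7, Ndufc2 and Ndufs5. The difference between the 2 lists was not tested. Cox6c, an accessory subunit of cytochrome c oxidase, was at 432, 325, 318, 296 and 410.5 CPM in no pyruvate blastocysts, against 858, 968, 1049 and 568 CPM in no lactate blastocysts. Standard libraries had Cox6c at 847, 719, 923 and 1038 CPM, above every no pyruvate library and overlapping the no lactate range. Its no pyruvate libraries were all low (log2 change -1.25, SE 0.18, adjusted p = 4.4e-06 by limma). Atp5b, the catalytic beta subunit of ATP synthase, was at 1401, 1828, 1764, 1398 and 1577 CPM in no pyruvate blastocysts, against 3169, 3101, 3978 and 3966 CPM in no lactate blastocysts (log2 change -1.16, SE 0.19, adjusted p = 1.3e-05), and Cox8a, a further oxidase subunit, at 599, 492, 435, 419.6 and 606 CPM in no pyruvate blastocysts, against 1133, 1277, 1584 and 859 CPM in no lactate blastocysts (log2 change -1.23, SE 0.18, adjusted p = 4e-06). For both genes the groups did not overlap. These genes are also short and abundant, the classes in which the general shift was smallest or negative, and after quantile scaling and length correction the list medians were -0.35 and -1.32.

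**Figure D2:**
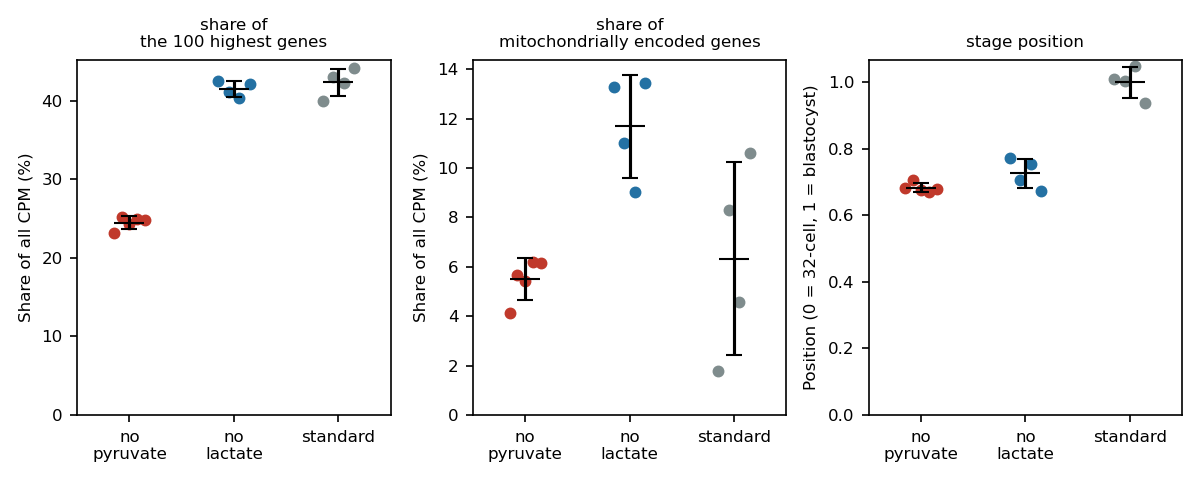
Share of CPM held by the 100 highest genes (%), share held by mitochondrially encoded genes (%) and stage position (0 = mean of standard early 32-cell embryos, 1 = mean of standard blastocysts) in each library of no pyruvate (n = 5), no lactate (n = 4) and standard (n = 4) blastocysts. Points are libraries, horizontal marks are means and bars are SD; both shares separate no pyruvate from no lactate libraries, at 24.5 ± 0.794% against 41.5 ± 1.01% and 5.51 ± 0.845% against 11.7 ± 2.08%, and the positions overlap.

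Genes that handle pyruvate and lactate themselves were asked about directly, since the media differ in these substrates. Of 20 tested, 15 were higher and 0 lower on the deposited scale, where 80.7% of all genes were higher. Their median was 0.78, below the median of all genes. After median-ratio scaling 5 were higher and 7 lower, after quantile scaling 7 and 3, and after length correction 5 and 10. Those higher on all 4 scales were Dlat, Ldha, Pdhx, Pdk2 and Pdp2 (25% of the list, against 16.4% of all genes). Ldha, the A subunit of lactate dehydrogenase, was at 19.6, 35.6, 21.5, 26.9 and 21.3 CPM in no pyruvate blastocysts, against 6.28, 5.6, 6.16 and 5.88 CPM in no lactate blastocysts. Ldha was at 30.1, 42.3, 39.8 and 27.4 CPM in standard blastocysts, overlapping the no pyruvate range and above every no lactate library. The no lactate libraries were low and close together (log2 change 1.86, SE 0.18, adjusted p = 3.6e-08, by limma; no lactate minus standard -2.34, no pyruvate minus standard -0.48). Ldhb, the other somatic subunit, was under the filter, with group means of 0.935 CPM in no pyruvate, 0.164 CPM in no lactate and 0.237 CPM in standard blastocysts. Slc16a1, the monocarboxylate transporter that carries pyruvate and lactate across the cell membrane, was at 39.7, 50.6, 63.7, 55.1 and 52.9 CPM in no pyruvate blastocysts, against 21.2, 27.1, 23.7 and 26.4 CPM in no lactate blastocysts, higher on the deposited scale (log2 change 1.05, SE 0.20, adjusted p = 6e-05) but between -0.16 and -0.11 on the rescaled values.

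Within the pyruvate dehydrogenase complex, some subunits were called higher and others did not pass, and differences between subunits were not tested. Pdhx, which anchors the E3 enzyme, was at 131, 128, 118, 125 and 105 CPM in no pyruvate blastocysts, against 33.9, 31.4, 30.4 and 37.6 CPM in no lactate blastocysts (log2 change 1.83, SE 0.16, adjusted p = 1.3e-08 by limma). Standard blastocysts had Pdhx at 41.3, 39.7, 23.9 and 32.5 CPM, below every no pyruvate library and overlapping the no lactate range. Dlat, the E2 acetyltransferase core, was at 123, 113, 116, 133 and 96.3 CPM in no pyruvate blastocysts, against 37, 34.6, 37 and 32.8 CPM in no lactate blastocysts (log2 change 1.69, SE 0.15, adjusted p = 1.5e-08 by limma). For both genes every no pyruvate library was above every no lactate library. Dld, the E3 enzyme, was called higher on the deposited scale and after rescaling was -0.66, 0.09 and -0.59 by median ratio, quantile and length correction (log2 change 0.58, SE 0.14, adjusted p = 0.000658 by limma on the deposited scale). The E1 subunits did not pass on the deposited scale: Pdha1 was at 374, 428, 469, 378 and 379 CPM in no pyruvate blastocysts, against 368, 380.4, 335 and 484 CPM in no lactate blastocysts (log2 change 0.06, limma adjusted p = 0.758), and Pdhb at 381, 425, 422, 372 and 342 CPM in no pyruvate blastocysts, against 323, 341, 337 and 388 CPM in no lactate blastocysts (log2 change 0.16, adjusted p = 0.326). The sign for both E1 subunits depended on the scale. Pdha1 was -1.18 after median-ratio scaling and 0.18 after quantile scaling, and Pdhb was -1.08 and 0.23. Both a kinase and a phosphatase of the complex were higher on all 4 scales. Pdk2, a kinase that inhibits the complex, was at 8.49, 13.9, 10.4, 9.07 and 8.95 CPM in no pyruvate blastocysts, against 1.87, 1.25, 0.956 and 0.575 CPM in no lactate blastocysts (log2 change 2.38, SE 0.23, adjusted p = 3.8e-08). Standard libraries had Pdk2 at 3.01, 3.19, 1.65 and 0.97 CPM, below every no pyruvate library and overlapping the no lactate range. Pdp2, a phosphatase that activates it, was at 358, 218, 291, 531 and 304 CPM in no pyruvate blastocysts, against 92.7, 82.5, 72.5 and 121 CPM in no lactate blastocysts (log2 change 1.84, SE 0.25, adjusted p = 1.6e-06). Pdp2 was at 44.5, 70.5, 29.6 and 59.6 CPM in standard blastocysts, below every library of both other groups. Mpc1, a subunit of the mitochondrial pyruvate carrier, was at 199, 156, 152, 173 and 181 CPM in no pyruvate blastocysts, against 160.3, 219, 182 and 154 CPM in no lactate blastocysts, with overlapping groups and a change of -0.05 on the deposited scale (limma adjusted p = 0.776). On the rescaled values Mpc1 was called lower each time, at -1.29 after median-ratio scaling (adjusted p = 2.7e-06), -0.48 after quantile scaling (adjusted p = 0.0106) and -1.04 after length correction (adjusted p = 2.9e-05).

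Few genes of downstream and neighbouring pathways stood on all 4 scales. Of 20 genes listed with the TCA cycle, 13 were higher and 1 lower on the deposited scale. After median-ratio scaling 2 were higher and 15 lower, and after length correction 2 and 14. On all 4 scales Ogdh and Idh1, listed here although cytosolic, were higher (10%, against 16.4% of all genes). Sdhc was lower on all 4 scales (5%, against 7.08%). Idh1, the cytosolic NADP-dependent isocitrate dehydrogenase, was at 672, 619.8, 602, 625 and 478 CPM in no pyruvate blastocysts, against 183, 161, 147 and 260.0 CPM in no lactate blastocysts (log2 change 1.70, SE 0.19, adjusted p = 1.8e-07 by limma). Standard blastocysts had Idh1 at 386, 345, 223 and 246 CPM, below every no pyruvate library and overlapping the no lactate range. Ogdh, the E1 enzyme of the oxoglutarate dehydrogenase complex, was at 143, 162, 187, 191 and 148 CPM in no pyruvate blastocysts, against 54.4, 44.7, 46.4 and 57.8 CPM in no lactate blastocysts (log2 change 1.69, SE 0.16, adjusted p = 2.7e-08). No pyruvate libraries were above all no lactate libraries for Idh1 and for Ogdh. Glycolysis genes gave 13 higher and 2 lower of 19 on the deposited scale, 4 and 9 after median-ratio scaling, and 2 and 11 after length correction. On all 4 scales Eno3 and Pfkl were higher (10.5%, against 16.4% of all genes) and Gapdh lower (5.26%, against 7.08%). Pfkl, a phosphofructokinase subunit at the committed step of glycolysis, was at 11.6, 13, 24.1, 19.3 and 14 CPM in no pyruvate blastocysts, against 2.91, 2.11, 1.7 and 1.84 CPM in no lactate blastocysts (log2 change 2.44, SE 0.24, adjusted p = 4.1e-08). Slc2a3, a glucose transporter of the trophectoderm, was at 1374, 936, 1321, 1989.8 and 1004 CPM in no pyruvate blastocysts, against 367, 390.1, 350.1 and 583 CPM in no lactate blastocysts, a change of 1.62 (SE 0.27, adjusted p = 2.1e-05) that was between 0.37 and 2.07 on the rescaled values and did not pass after median-ratio scaling or length correction. Standard libraries had Slc2a3 at 1387, 2012, 1148 and 637 CPM, overlapping the no pyruvate range and above every no lactate library. The NADH shuttle genes, which carry reducing equivalents into mitochondria, had 9 higher and 0 lower of 11 on the deposited scale. The pentose phosphate genes had 9 higher and 0 lower of 9 on that scale, where 80.7% of all genes were higher. None of either list stood on all 4 scales.

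**Figure D3:**
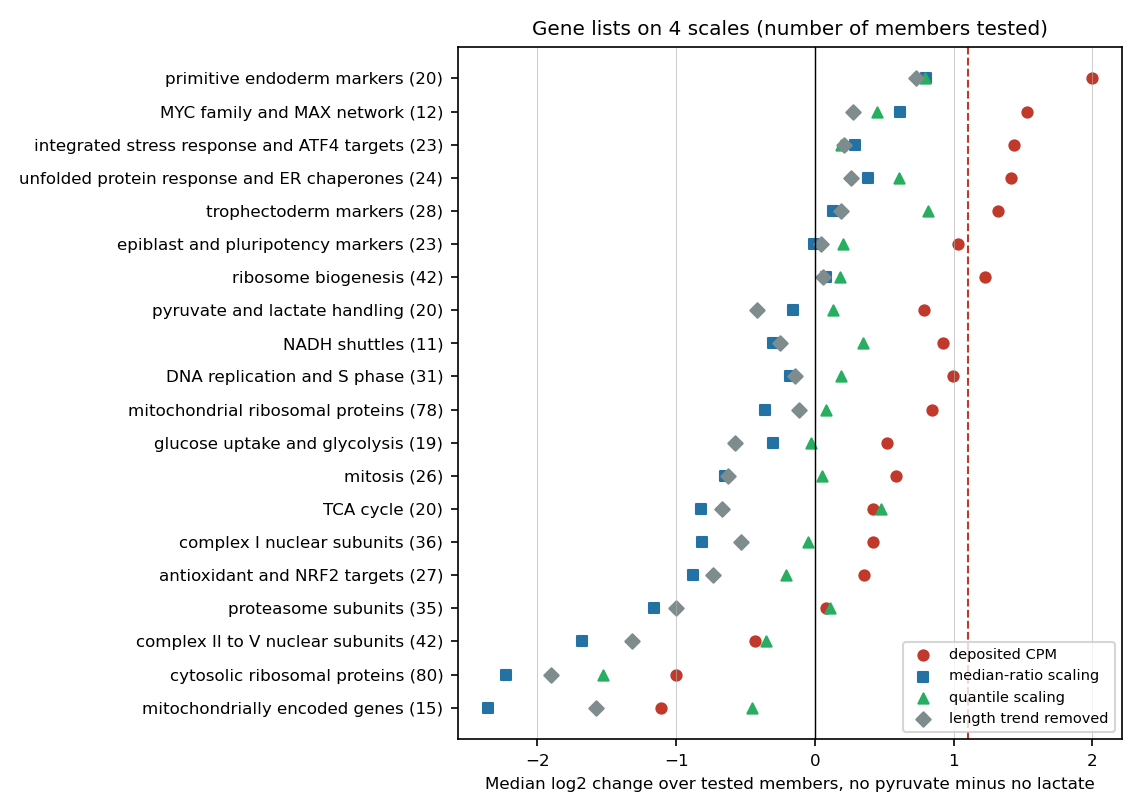
Median log2 change (no pyruvate minus no lactate blastocysts) over the tested members of the gene lists named on the axis on deposited CPM and after 3 rescalings, with the number of members in parentheses and the median of all genes on deposited CPM, 1.11, dashed. Primitive endoderm markers lie above 0 on every scale, from 0.73 to 2.00, and ribosomal proteins below 0, from -2.23 to -1; for many other lists the side of 0 depends on the scale.

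Primitive endoderm genes were higher without pyruvate than without lactate. Of 20 primitive endoderm markers tested, of 22 listed, 19 were higher and 0 lower on the deposited scale, where 80.7% of all genes were higher. On all 4 scales 13 were higher (65%, against 16.4% of all genes), among them Col4a1, Col4a2, Fgfr2, Gata4, Lama1, Lamb1, Lamc1, Pdgfra, Serpinh1, Sox7, Sparc and Srgn. Laminin and collagen IV chains, which primitive endoderm lays down as basement membrane, make up 5 of these. Lama1, a laminin chain, was at 58.1, 80.6, 104, 107 and 116 CPM in no pyruvate blastocysts, against 8.93, 5.62, 10.5 and 2.41 CPM in no lactate blastocysts. Lama1 was at 41.4, 130.2, 29.3 and 45.2 CPM in standard blastocysts, overlapping the no pyruvate range and above every no lactate library. Every no pyruvate library was above every no lactate library (log2 change 3.68, SE 0.37, adjusted p = 5.2e-08 by limma; no lactate minus standard -2.89). Serpinh1, a chaperone for collagen, was at 33.3, 24.7, 29.2, 35 and 19.7 CPM in no pyruvate blastocysts, against 1.2, 2.15, 2.13 and 0.689 CPM in no lactate blastocysts (log2 change 3.55, SE 0.27, adjusted p = 6.7e-09). Standard blastocysts had Serpinh1 at 10.7, 12.3, 5.84 and 3.68 CPM, below every no pyruvate library and above every no lactate library. In whole embryos fewer cells of a type and less of its RNA per cell cannot be told apart.

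The transcription factors that order this lineage were not all alike. Gata4, which acts once the fate is set, was at 22.6, 25.3, 26.9, 17.3 and 19 CPM in no pyruvate blastocysts, against 4.74, 2.83, 4 and 0.919 CPM in no lactate blastocysts (log2 change 2.59, SE 0.27, adjusted p = 8.1e-08 by limma). Standard libraries had Gata4 at 10.3, 14.7, 8.63 and 6.55 CPM, below every no pyruvate library and above every no lactate library. Sox17, another late factor, was at 10.1, 10.2, 10.5, 12.9 and 9.41 CPM in no pyruvate blastocysts, against 3.47, 2.97, 3.9 and 1.32 CPM in no lactate blastocysts (log2 change 1.62, SE 0.20, adjusted p = 5.2e-07), and between 0.37 and 0.58 on the rescaled values, where it passed after median-ratio scaling alone. Gata6, the earliest factor of the lineage, was at 83.8, 67.1, 87.6, 91.6 and 97.7 CPM in no pyruvate blastocysts, against 40.2, 46.2, 42.5 and 23.6 CPM in no lactate blastocysts. Gata6 was at 14.6, 23.9, 16.1 and 25.5 CPM in standard blastocysts, below every no pyruvate library and overlapping the no lactate range. No lactate libraries 1 to 3 were above every standard library and library 4 was not (no lactate minus standard 0.89, adjusted p = 0.0061), and the change between no pyruvate and no lactate, 1.18 on the deposited scale (adjusted p = 2.4e-05), was between -0.07 and 0.17 on the rescaled values.

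Trophectoderm genes gave 22 higher and 2 lower of 28 tested on the deposited scale, and 11 and 9 after median-ratio scaling. On all 4 scales 11 were higher and 2 lower (39.3% and 7.14%, against 16.4% and 7.08% of all genes). The higher ones were Aqp3, Ascl2, Bmp4, Elf5, Eomes, Fgfr2, Gata2, Krt19, Plac1, Tfap2a and Tinagl1, and the lower ones were the keratins Krt7 and Krt8. Plac1, a placental gene on chromosome X, was at 203, 190.2, 258, 209 and 214 CPM in no pyruvate blastocysts, against 49.1, 33.6, 30.1 and 21.9 CPM in no lactate blastocysts. Standard blastocysts had Plac1 at 429, 467, 539 and 296 CPM, above every library of both other groups. Libraries of the 3 groups did not overlap (log2 change 2.69, SE 0.20, adjusted p = 6e-09 by limma; no pyruvate minus standard -0.98, no lactate minus standard -3.67). Elf5, which maintains trophoblast stem cells, was at 28.2, 29.5, 33.2, 32.3 and 32.6 CPM in no pyruvate blastocysts, against 4.22, 2.76, 3.61 and 4.31 CPM in no lactate blastocysts (log2 change 2.78, SE 0.25, adjusted p = 2.3e-08). Standard libraries had Elf5 at 57.4, 19.2, 30.1 and 16.2 CPM, overlapping the no pyruvate range and above every no lactate library. Eomes, required for trophoblast proliferation, was at 105, 82.3, 116, 114 and 109.5 CPM in no pyruvate blastocysts, against 19.7, 16.9, 18.5 and 11.2 CPM in no lactate blastocysts (log2 change 2.61, SE 0.21, adjusted p = 8e-09). Eomes was at 46.1, 70.6, 69.2 and 33.8 CPM in standard blastocysts, below every no pyruvate library and above every no lactate library. For Elf5 and Eomes the no lactate libraries were below every other library.

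Cdx2, the factor that keeps trophectoderm from expressing inner cell mass genes, was at 84.7, 47.6, 47.8, 60 and 36.8 CPM in no pyruvate blastocysts, against 15.1, 15.2, 19.1 and 9.13 CPM in no lactate blastocysts. Standard blastocysts had Cdx2 at 62.5, 94.1, 47.6 and 18.5 CPM, overlapping both other groups. It was higher on the deposited scale (log2 change 1.83, SE 0.34, adjusted p = 5.1e-05 by limma) and between 0.63 and 0.81 on the rescaled values, passing there after length correction alone. Gata3, which acts beside Cdx2, was at 1342, 1134, 1248, 1668 and 1339.5 CPM in no pyruvate blastocysts, against 823, 607, 513 and 561 CPM in no lactate blastocysts (log2 change 1.12, SE 0.22, adjusted p = 0.000119), with rescaled values between -0.13 and 1.59. Bmp4, a secreted signal listed with trophectoderm and with epiblast, was at 35.5, 33.2, 16.7, 31.7 and 16.7 CPM in no pyruvate blastocysts, against 3.59, 2.97, 2.94 and 2.7 CPM in no lactate blastocysts (log2 change 2.71, SE 0.23, adjusted p = 1.3e-08). Standard libraries had Bmp4 at 3.39, 3.77, 2.89 and 5.62 CPM, below every no pyruvate library and overlapping the no lactate range. Epiblast and pluripotency genes gave 18 higher and 2 lower of 23, with Bmp4, Fgf4, Lefty2 and Tdh higher and Fbxo15 lower on all 4 scales (17.4% higher, against 16.4% of all genes). Nanog, a factor of the naive epiblast, was at 77.8, 100.3, 90, 92.2 and 69 CPM in no pyruvate blastocysts, against 87.6, 100.5, 94.4 and 180.0 CPM in no lactate blastocysts, with overlapping groups (-0.37, adjusted p = 0.143) and rescaled values between -1.60 and -1.21. Nanog was at 50.7, 30.8, 34.3 and 75.1 CPM in standard blastocysts, overlapping the no pyruvate range and below every no lactate library. Pou5f1, the factor OCT4, was at 94.6, 58.5, 63.5, 52.9 and 53.8 CPM in no pyruvate blastocysts, against 37.4, 56.2, 66 and 46.8 CPM in no lactate blastocysts (0.32, adjusted p = 0.207, and between -0.90 and -0.71 on the rescaled values). Sox2 was low in all groups, at 5.21, 4.97, 2.56, 5.94 and 4.87 CPM in no pyruvate blastocysts, against 1.79, 2.43, 1.91 and 0.977 CPM in no lactate blastocysts, and its change of 1.03 (adjusted p = 0.000122) was between -0.03 and 0.13 after rescaling. Tdh, which breaks down threonine in mouse pluripotent cells, was at 49.8, 32.4, 18.1, 66.3 and 37.9 CPM in no pyruvate blastocysts, against 6.58, 3.92, 6.88 and 5.52 CPM in no lactate blastocysts (log2 change 2.54, SE 0.36, adjusted p = 3e-06). Standard blastocysts had Tdh at 7.44, 33.9, 8.29 and 10.5 CPM, overlapping the no pyruvate range and above every no lactate library.

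**Figure D4:**
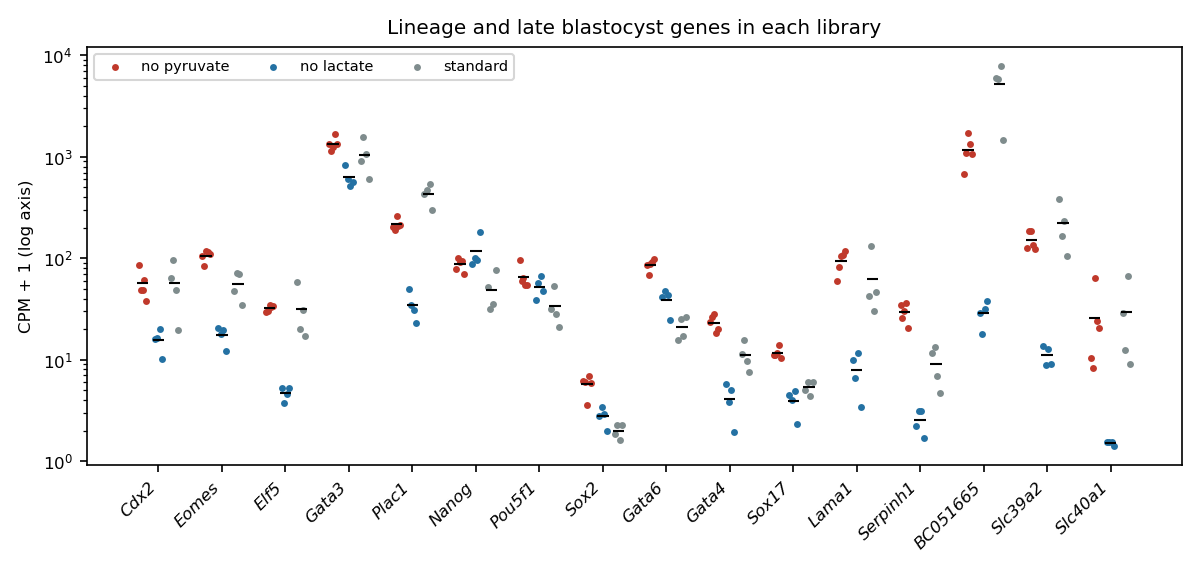
Level of lineage and late blastocyst genes (CPM + 1, log axis) in each library of no pyruvate (n = 5), no lactate (n = 4) and standard (n = 4) blastocysts, with points for libraries and black marks for means. No lactate libraries are lowest for Elf5, Eomes, Plac1, Lama1, Serpinh1, BC051665, Slc39a2 and Slc40a1, while the groups overlap for Nanog and Pou5f1.

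A wider set of late genes was taken from the standard course, without the compared groups. The set held 423 genes at least 4-fold higher in standard blastocysts than in standard early 32-cell embryos. Of these, 321 were higher and 41 lower in no pyruvate than in no lactate blastocysts on the deposited scale. On that scale 80.7% of all genes were higher. After median-ratio scaling 159 of the set were higher and 139 lower, after quantile scaling 222 and 66, and after length correction 182 and 104. On all 4 scales 143 were higher (33.8%, against 16.4% of all genes) and 27 lower (6.38%, against 7.08%). Of the 569 tested genes at least 4-fold lower in standard blastocysts than in early 32-cell embryos, 406 were higher and 39 lower on the deposited scale. After median-ratio scaling 75 of them were higher and 212 lower. On all 4 scales 37 were higher (6.5%) and 34 lower (5.98%).

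A stage position was computed per library over 4499 genes at least 2-fold different between standard early 32-cell embryos, set to 0, and standard blastocysts, set to 1. It was 0.682, 0.707, 0.677, 0.671 and 0.681 in no pyruvate blastocysts, against 0.771, 0.705, 0.754 and 0.673 in no lactate blastocysts. Both groups lay below the standard blastocysts, and they overlapped. The means were 0.684 ± 0.0137 (SD, n = 5) and 0.726 ± 0.0449 (SD, n = 4), a difference of -0.042 (exact permutation p = 0.143, two-sided). The direction turned with the scale: the difference was 0.050 after median-ratio scaling (p = 0.0635), 0.115 after quantile scaling (p = 0.0159) and 0.0609 over the 1026 genes at least 4-fold different (p = 0.0476), by the same exact permutation test. It therefore gives no order of the groups, and no statement on stage is drawn from it.

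Several of the largest rises were in genes that standard blastocysts also had at high levels. BC051665 (ENSMUSG00000042243.10, chromosome 13, 60781887 to 60786364, minus strand, GENCODE vM21 on GRCm38) was at 669.9, 1092, 1701, 1350.2 and 1074 CPM in no pyruvate blastocysts, against 27.6, 16.8, 30.6 and 36.6 CPM in no lactate blastocysts. Standard libraries had BC051665 at 5976, 5792, 7856 and 1472 CPM, overlapping the no pyruvate range and above every no lactate library. All no pyruvate libraries were far above all no lactate libraries and below standard libraries 1 to 3 (log2 change 5.34, SE 0.37, adjusted p = 3.8e-09 by limma; no pyruvate minus standard -1.99, no lactate minus standard -7.33). Slc39a2, a zinc importer, was at 124, 187, 186, 134 and 123 CPM in no pyruvate blastocysts, against 12.5, 7.91, 11.9 and 8.16 CPM in no lactate blastocysts (log2 change 3.77, SE 0.27, adjusted p = 4.6e-09). Slc39a2 was at 379, 165, 231 and 105 CPM in standard blastocysts, overlapping the no pyruvate range and above every no lactate library. Slc40a1, the iron exporter ferroportin, was at 9.31, 7.22, 63.3, 23.1 and 19.7 CPM in no pyruvate blastocysts, against 0.558, 0.537, 0.531 and 0.402 CPM in no lactate blastocysts, variable in no pyruvate blastocysts and under 1 CPM in every no lactate library (log2 change 3.68, SE 0.52, adjusted p = 2.6e-06). Standard blastocysts had Slc40a1 at 27.8, 11.4, 66.3 and 8.13 CPM, overlapping the no pyruvate range and above every no lactate library. Unc93a2 was at 59.8, 123, 108, 74.8 and 91.6 CPM in no pyruvate blastocysts, against 8.21, 3.51, 3.73 and 4.47 CPM in no lactate blastocysts, and Abhd14b at 64.2, 70.6, 57.7, 55.4 and 67.6 CPM in no pyruvate blastocysts, against 4.73, 2.73, 4.72 and 3.58 CPM in no lactate blastocysts. The change of all these genes stood on all 4 scales. No lactate minus standard blastocysts was -4.18 for Slc39a2, -3.84 for Slc40a1, -4.05 for Unc93a2 and -3.41 for Abhd14b.

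Sf3a2, Ubald1, Zscan10 and Akr1c13, also among the largest rises, were high in no pyruvate blastocysts relative to both other groups. Sf3a2, a splicing factor of the U2 particle, was at 46.3, 9.11, 22.8, 59.6 and 32 CPM in no pyruvate blastocysts, against 0.449, 1.19, 0.817 and 0.0575 CPM in no lactate blastocysts (log2 change 4.24, SE 0.43, adjusted p = 6.6e-08 by limma). Standard libraries had Sf3a2 at 0.292, 3.65, 0.611 and 0.3 CPM, below every no pyruvate library and overlapping the no lactate range. Ubald1 was at 114, 84.2, 76.3, 155 and 103 CPM in no pyruvate blastocysts, against 8.93, 8.29, 8.06 and 3.68 CPM in no lactate blastocysts (log2 change 3.72, SE 0.39, adjusted p = 8.8e-08). Ubald1 was at 14.9, 40, 17.9 and 4.45 CPM in standard blastocysts, below every no pyruvate library and overlapping the no lactate range. Zscan10, a zinc finger factor of pluripotent cells, was at 48, 23.7, 30.4, 55.9 and 31.5 CPM in no pyruvate blastocysts, against 2.03, 0.931, 2.05 and 0.977 CPM in no lactate blastocysts (log2 change 3.93, SE 0.36, adjusted p = 2.3e-08). Standard blastocysts had Zscan10 at 3.74, 17.3, 5.7 and 2.51 CPM, below every no pyruvate library and above every no lactate library. Akr1c13, an aldo-keto reductase, was at 45.3, 50.5, 53.2, 43.1 and 46.2 CPM in no pyruvate blastocysts, against 2.22, 1.95, 2.7 and 1.06 CPM in no lactate blastocysts (log2 change 4.05, SE 0.19, adjusted p = 1.6e-10). Standard libraries had Akr1c13 at 12.2, 11.3, 8.55 and 6.76 CPM, below every no pyruvate library and above every no lactate library. Standard library 2 was the nearest to the no pyruvate range for Sf3a2, Ubald1 and Zscan10. H19, an imprinted long noncoding RNA and not one of the 10, was at 2.34, 5.72, 4.17, 13.9 and 11.1 CPM in no pyruvate blastocysts, against 0.04, 0.215, 0.142 and 0.115 CPM in no lactate blastocysts, under 1 CPM in every no lactate library (log2 change 2.70, SE 0.35, adjusted p = 8.3e-07). H19 was at 9.91, 6.51, 4.96 and 3.02 CPM in standard blastocysts, overlapping the no pyruvate range and above every no lactate library.

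Of the 10 largest falls, 7 were annotated as pseudogenes, and reads of near-identical copies cannot be assigned with certainty. Gm28439, an unprocessed pseudogene on chromosome 1, was at 0.00475, 0.187, 0.134, 0.0153 and 0.457 CPM in no pyruvate blastocysts, against 8.44, 11.8, 25 and 80.1 CPM in no lactate blastocysts, with no lactate library 4 highest. Tsix, the antisense partner of Xist, was at 19.4, 3.97, 3.03, 4.64 and 7.74 CPM in no pyruvate blastocysts, against 51.6, 213, 277 and 60.6 CPM in no lactate blastocysts (log2 change -4.02, SE 0.80, adjusted p = 0.000126 by limma). Standard blastocysts had Tsix at 3.97, 4.54, 10.2 and 188 CPM, overlapping both other groups. Whether counting used strand is not given in the sources used here, so reads of Tsix and Xist cannot be told apart with certainty. Gm45774, annotated on the strand opposite to Mt2 and overlapping it, was another of the 10, and the same limit applies.

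Both metallothionein genes, which encode small proteins that bind zinc and copper, were lower in no pyruvate blastocysts. In the mouse they are switched on by the zinc sensor MTF1 through metal response elements in their promoters. The 300 bases from 250 before to 50 after each start (RefSeq, GRCm38.p6, plus strand, mouse chromosome 8) are shown because they sit next to each other and both messages moved; capitals mark the core TGCACNC or TGCGCNC, searched on both strands.
Mt1, chr8:94178839-94179138: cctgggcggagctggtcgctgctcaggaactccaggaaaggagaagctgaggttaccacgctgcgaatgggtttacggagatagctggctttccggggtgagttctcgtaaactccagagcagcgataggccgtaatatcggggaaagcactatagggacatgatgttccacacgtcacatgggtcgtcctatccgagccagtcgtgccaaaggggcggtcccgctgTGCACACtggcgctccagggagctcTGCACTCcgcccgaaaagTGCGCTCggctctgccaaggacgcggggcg
Mt2, chr8:94172368-94172667: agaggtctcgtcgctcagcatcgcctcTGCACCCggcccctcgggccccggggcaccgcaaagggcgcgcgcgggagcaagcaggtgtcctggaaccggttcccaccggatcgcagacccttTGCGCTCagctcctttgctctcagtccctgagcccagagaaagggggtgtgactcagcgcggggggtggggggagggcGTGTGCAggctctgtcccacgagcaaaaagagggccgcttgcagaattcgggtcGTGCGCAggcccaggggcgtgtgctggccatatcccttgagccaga
The core occurs 3 times in the Mt1 window and 4 times in the Mt2 window. Among 32851 promoter windows of the same length, 25.7% held at least 1 match, 1.97% at least 3 and 0.517% at least 4. A match is a description of the letters and not a site.

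Mt2 was at 324, 289, 310.4, 225 and 378 CPM in no pyruvate blastocysts, against 1681, 1864, 2078 and 1039 CPM in no lactate blastocysts. Standard libraries had Mt2 at 570.2, 385, 752 and 1161 CPM, above every no pyruvate library and overlapping the no lactate range. Standard library 4 was inside the no lactate range and the other standard libraries lay between the groups (log2 change -2.42, SE 0.26, adjusted p = 1.2e-07 by limma, and between -3.66 and -2.38 on the rescaled values). Mt1 was at 1079, 994, 985, 784 and 1141 CPM in no pyruvate blastocysts, against 4318, 4075, 3879 and 2660.1 CPM in no lactate blastocysts (log2 change -1.89, SE 0.18, adjusted p = 3.7e-08). Mt1 was at 2033, 2380.3, 2671 and 3183 CPM in standard blastocysts, above every no pyruvate library and overlapping the no lactate range. On the list of antioxidant and NRF2 target genes, 13 were higher and 8 lower of 27, with Gclc, Keap1 and Srxn1 higher and Gpx1, Gpx4, Gsto1, Mt1, Mt2, Sod1 and Txn1 lower on all 4 scales (25.9% lower, against 7.08% of all genes). Gsto1, a glutathione transferase, was at 307, 314, 277, 225 and 391 CPM in no pyruvate blastocysts, against 893, 1086, 1502 and 967 CPM in no lactate blastocysts (log2 change -1.87, SE 0.20, adjusted p = 1.3e-07). Standard blastocysts had Gsto1 at 582, 364, 641 and 668 CPM, overlapping the no pyruvate range and below every no lactate library. Its no pyruvate libraries were below all no lactate libraries, and all but library 5 were below every standard library.

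Genes listed with the cytosolic heat shock response split. Of 12 tested, 5 were higher and 5 lower, and on all 4 scales Bag3 and Hsf1 were higher and Hsp90aa1 and Hspe1 lower. These were 16.7% each way, against 16.4% of all genes higher and 7.08% lower. Hspe1 also stands on the list of mitochondrial stress and quality control. Hsp90aa1, the inducible cytosolic HSP90, was at 3192, 3654, 3620.1, 2714 and 4089 CPM in no pyruvate blastocysts, against 10889.8, 13598, 14246 and 10881 CPM in no lactate blastocysts (log2 change -1.85, SE 0.29, adjusted p = 8.2e-06 by limma). Standard libraries had Hsp90aa1 at 4958, 2686, 7314 and 11021 CPM, overlapping both other groups. Hsf1, the factor that switches on heat shock genes, was at 41.1, 38.9, 42.9, 41.4 and 37 CPM in no pyruvate blastocysts, against 5.9, 6.62, 7.58 and 3.27 CPM in no lactate blastocysts (log2 change 2.64, SE 0.23, adjusted p = 1.4e-08). Hsf1 was at 6.14, 11, 6.16 and 3.8 CPM in standard blastocysts, below every no pyruvate library and overlapping the no lactate range. Bag3, a co-chaperone, was at 58.2, 54.4, 59.6, 62.2 and 55.6 CPM in no pyruvate blastocysts, against 15, 22.4, 21.3 and 5.69 CPM in no lactate blastocysts (log2 change 1.94, SE 0.31, adjusted p = 9.4e-06). The no pyruvate libraries were high for the regulator and low for the abundant chaperone, in each case outside the no lactate range.

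Genes of the integrated stress response, in which ATF4 raises amino acid uptake and synthesis, were among the higher ones. Of 23 tested, 19 were higher and 0 lower on the deposited scale, where 80.7% of all genes were higher. After median-ratio scaling 10 members were higher and 7 lower, and after length correction 10 and 6. On all 4 scales 9 were higher (39.1%, against 16.4% of all genes): Aldh18a1, Asns, Cebpg, Nupr1, Psph, Pycr1, Shmt2, Slc7a3 and Slc7a5. The composite element TGATGNAA, bound by ATF4 with a C/EBP partner, was searched on both strands in the RefSeq promoter windows of these genes. It was present in 3 of the 7 with an entry (Asns, Nupr1 and Pycr1) and in 3.97% of all 32851 windows. The list was made of known ATF4 targets, so a share above that of all windows can come from the choice of genes. Its other members were not searched, so a link between the element and the change was not tested. The windows of Asns and Nupr1 (GRCm38.p6, minus strand, 250 before to 50 after the start) are shown because their values follow, with the element in capitals.
Asns, chr6:7693160-7693459: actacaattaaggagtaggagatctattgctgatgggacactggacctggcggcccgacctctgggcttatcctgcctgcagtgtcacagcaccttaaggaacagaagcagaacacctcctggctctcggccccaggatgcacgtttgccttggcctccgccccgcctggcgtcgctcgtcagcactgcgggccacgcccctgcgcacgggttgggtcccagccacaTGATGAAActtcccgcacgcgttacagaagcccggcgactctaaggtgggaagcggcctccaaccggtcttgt
Nupr1, chr7:126625421-126625720: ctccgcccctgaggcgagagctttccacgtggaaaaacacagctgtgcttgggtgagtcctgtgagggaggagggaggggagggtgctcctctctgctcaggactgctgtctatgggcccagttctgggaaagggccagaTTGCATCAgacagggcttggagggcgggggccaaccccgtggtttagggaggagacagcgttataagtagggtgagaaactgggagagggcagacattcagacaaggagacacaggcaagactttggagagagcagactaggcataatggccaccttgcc
In the Nupr1 window the element lies on the strand opposite to the gene.

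Asns, asparagine synthetase, was at 237, 337, 276, 229 and 226 CPM in no pyruvate blastocysts, against 104, 57.5, 71.9 and 42.6 CPM in no lactate blastocysts (log2 change 1.96, SE 0.24, adjusted p = 5.1e-07 by limma). Standard blastocysts had Asns at 293, 182, 168 and 124 CPM, overlapping the no pyruvate range and above every no lactate library. Asns was chosen for the text after its values were seen. Nupr1, a small stress-induced chromatin protein, was at 3.34, 9.19, 5.69, 19.6 and 12.9 CPM in no pyruvate blastocysts, against 0.877, 0.573, 1.28 and 0.287 CPM in no lactate blastocysts (log2 change 2.50, SE 0.36, adjusted p = 3.3e-06). Standard libraries had Nupr1 at 23.1, 10.2, 7.67 and 12.3 CPM, overlapping the no pyruvate range and above every no lactate library. Slc7a3, a cationic amino acid transporter, was at 29.1, 28.7, 17.3, 48.5 and 26.5 CPM in no pyruvate blastocysts, against 1.4, 0.788, 1.28 and 1.55 CPM in no lactate blastocysts (log2 change 3.72, SE 0.26, adjusted p = 3.8e-09). Slc7a3 was at 15.3, 17.4, 9.22 and 7.12 CPM in standard blastocysts, overlapping the no pyruvate range and above every no lactate library. For Asns, Nupr1 and Slc7a3 the no lactate libraries were below every other library. Slc7a5, the large neutral amino acid transporter, was at 8.08, 6, 8.63, 17.2 and 11.2 CPM in no pyruvate blastocysts, against 1.4, 1.36, 2.13 and 0.689 CPM in no lactate blastocysts (log2 change 2.19, SE 0.23, adjusted p = 9.1e-08). Standard blastocysts had Slc7a5 at 1.87, 2.24, 2.01 and 2.02 CPM, below every no pyruvate library and overlapping the no lactate range.

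Genes of the unfolded protein response serve folding and degradation in the endoplasmic reticulum. They gave 21 higher and 0 lower of 24 on the deposited scale, where 80.7% of all genes were higher. After median-ratio scaling 10 were higher and 4 lower, and after length correction again 10 and 4. On all 4 scales 9 were higher (37.5%, against 16.4% of all genes): Creld2, Dnajb11, Dnajc3, Edem1, Herpud1, Hyou1, Sdf2l1, Syvn1 and Xbp1. Syvn1, a ubiquitin ligase of the endoplasmic reticulum, was at 26.4, 16, 23.3, 30.1 and 27.6 CPM in no pyruvate blastocysts, against 2.08, 2.66, 2.88 and 0.92 CPM in no lactate blastocysts (log2 change 3.06, SE 0.25, adjusted p = 8.9e-09 by limma). Standard libraries had Syvn1 at 2.1, 5.41, 3.35 and 2.19 CPM, below every no pyruvate library and overlapping the no lactate range. Herpud1, which works with it in degradation of misfolded proteins, was at 42.8, 48, 57.5, 69.6 and 54.2 CPM in no pyruvate blastocysts, against 12.8, 4.83, 7.3 and 5.51 CPM in no lactate blastocysts (log2 change 2.75, SE 0.31, adjusted p = 2.1e-07). Herpud1 was at 90, 50.4, 35.3 and 20.4 CPM in standard blastocysts, overlapping the no pyruvate range and above every no lactate library. For both genes every no pyruvate library was above every no lactate library.

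**Figure D5:**
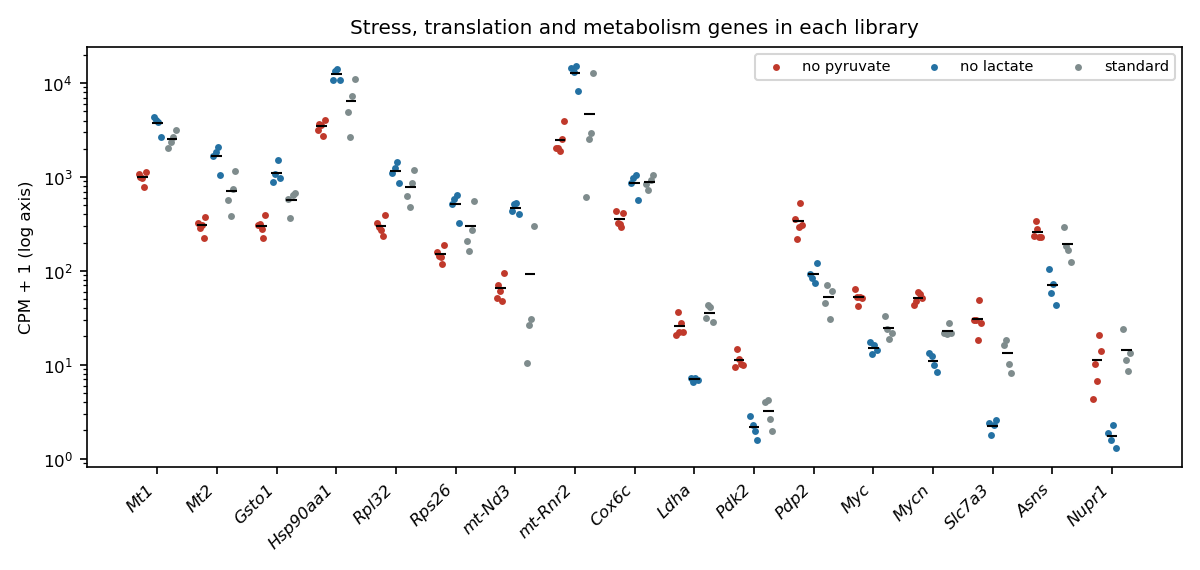
Level of stress, translation and metabolism genes (CPM + 1, log axis) in each library of no pyruvate (n = 5), no lactate (n = 4) and standard (n = 4) blastocysts, with points for libraries and black marks for means. Mt1, Mt2, Gsto1, Hsp90aa1, Rpl32, Rps26, mt-Nd3, mt-Rnr2 and Cox6c are lower in every no pyruvate than in any no lactate library, and Ldha, Pdk2, Pdp2, Myc, Mycn, Slc7a3, Asns and Nupr1 are higher.

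The MYC family and its MAX partners, transcription factors of growth, were listed because other embryos of the series, no pyruvate morulae, were treated with a MYC inhibitor. All 12 members tested were higher on the deposited scale, where 80.7% of all genes were higher. Their median was 1.53, against 1.11 over all genes. Max, Mlx, Mxd4, Myc and Mycn were higher on all 4 scales (41.7%, against 16.4% of all genes). Mycn was at 42.6, 46.7, 58.5, 55.6 and 49.9 CPM in no pyruvate blastocysts, against 12.3, 11.5, 8.92 and 7.47 CPM in no lactate blastocysts (log2 change 2.24, SE 0.16, adjusted p = 4.6e-09 by limma). Standard blastocysts had Mycn at 20.7, 20.1, 26.5 and 20.7 CPM, below every no pyruvate library and above every no lactate library. Myc was at 63.7, 52.1, 41.3, 51.7 and 50.5 CPM in no pyruvate blastocysts, against 16.3, 12.1, 15.2 and 13.3 CPM in no lactate blastocysts (log2 change 1.79, SE 0.17, adjusted p = 3.2e-08). Standard libraries had Myc at 31.9, 22.9, 17.8 and 21 CPM, below every no pyruvate library and above every no lactate library. For both genes the 3 groups did not overlap. Max, the shared partner, was at 42.5, 32.2, 24.8, 26.6 and 26.8 CPM in no pyruvate blastocysts, against 8.41, 6.3, 8.25 and 4.37 CPM in no lactate blastocysts (log2 change 2.02, SE 0.23, adjusted p = 2.2e-07). Mlx, the partner of the glucose-sensing MondoA and ChREBP factors, was at 54.7, 53.2, 49.9, 43.5 and 55.6 CPM in no pyruvate blastocysts, against 13.9, 12.4, 12.5 and 12.7 CPM in no lactate blastocysts (log2 change 1.91, SE 0.13, adjusted p = 3.6e-09). Mxd4, which opposes MYC, was at 3.6, 5.86, 6.16, 4.41 and 8.03 CPM in no pyruvate blastocysts, against 0.797, 0.543, 0.952 and 0.345 CPM in no lactate blastocysts (log2 change 1.97, SE 0.20, adjusted p = 5.3e-08).

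Few cell cycle genes stood on all 4 scales. Of 31 DNA replication genes, 29 were higher and 0 lower on the deposited scale, where 80.7% of all genes were higher. Gins2, Mcm2 and Prim2 were higher on all 4 scales (9.68%, against 16.4% of all genes). Mcm2, part of the replicative helicase, was at 249, 147, 195, 371 and 224 CPM in no pyruvate blastocysts, against 35.8, 37.3, 45.6 and 34.5 CPM in no lactate blastocysts (log2 change 2.54, SE 0.32, adjusted p = 5.9e-07 by limma). Mcm2 was at 37, 125, 36.2 and 30.3 CPM in standard blastocysts, below every no pyruvate library and overlapping the no lactate range. Mitosis genes gave 17 higher and 2 lower of 26, and Ube2c, which helps end mitosis, was lower on all 4 scales (3.85%, against 7.08%). Pfas, an enzyme of purine synthesis, was at 174, 119.9, 132, 312 and 169 CPM in no pyruvate blastocysts, against 34.3, 31.7, 23.9 and 52.8 CPM in no lactate blastocysts (log2 change 2.28, SE 0.31, adjusted p = 1.5e-06). Standard blastocysts had Pfas at 39.6, 64.9, 19.3 and 27.2 CPM, below every no pyruvate library and overlapping the no lactate range. Dnmt3a, a de novo DNA methyltransferase, was at 33.4, 44.3, 38.5, 34.8 and 52.4 CPM in no pyruvate blastocysts, against 5.4, 5.48, 7.01 and 6.05 CPM in no lactate blastocysts (log2 change 2.56, SE 0.16, adjusted p = 1.3e-09). Standard libraries had Dnmt3a at 6.52, 7.49, 6.55 and 8.29 CPM, below every no pyruvate library and overlapping the no lactate range. Dgat1, which makes triglyceride, was at 26.2, 26.6, 38.9, 44.8 and 37.1 CPM in no pyruvate blastocysts, against 4.5, 5.55, 5.91 and 5.51 CPM in no lactate blastocysts (log2 change 2.46, SE 0.25, adjusted p = 7.2e-08). Of 24 genes of fatty acid synthesis and lipid storage, 22 were higher and 1 lower. Acaca, Acss2, Dgat1, Elovl1, Fasn and Srebf1 were higher and Fabp5 lower on all 4 scales (25% and 4.17%, against 16.4% and 7.08% of all genes).

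Genes of junctions and the fluid-filled cavity, which the trophectoderm builds, gave 25 higher and 0 lower of 28 on the deposited scale. On that scale 80.7% of all genes were higher. After median-ratio scaling 9 of the list were higher and 8 lower, and after length correction again 9 and 8. Of the 28 genes, 9 were higher on all 4 scales (32.1%, against 16.4% of all genes), among them Aqp3, Aqp8, Aqp9, Jup, Ocln, Pard3, Pard6b and Prkcz. Aqp8, a water channel, was at 46, 54, 61.6, 38.1 and 52.7 CPM in no pyruvate blastocysts, against 7.61, 5.73, 5.21 and 6.72 CPM in no lactate blastocysts (log2 change 2.81, SE 0.16, adjusted p = 1.2e-09 by limma). Aqp8 was at 26.5, 34.5, 24.1 and 27.1 CPM in standard blastocysts, below every no pyruvate library and above every no lactate library. Jup, plakoglobin of desmosomes and adherens junctions, was at 116, 73.3, 108, 118 and 110.0 CPM in no pyruvate blastocysts, against 14.4, 19.8, 23.3 and 5.47 CPM in no lactate blastocysts (log2 change 2.80, SE 0.36, adjusted p = 8.1e-07). Standard blastocysts had Jup at 19.9, 42, 44 and 11.9 CPM, below every no pyruvate library and overlapping the no lactate range. Ocln, occludin of tight junctions, was at 105, 90.5, 111, 123 and 69.6 CPM in no pyruvate blastocysts, against 28.5, 18.2, 17.6 and 27.6 CPM in no lactate blastocysts (log2 change 2.08, SE 0.18, adjusted p = 1.7e-08). No pyruvate libraries were above all no lactate and all standard libraries for Aqp8, Jup and Ocln.

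The remaining lists had at most 4 members higher and at most 1 lower on all 4 scales. On the deposited scale 80.7% of all genes were higher and 8.05% lower, and on all 4 scales 16.4% and 7.08%. The share of each list on all 4 scales is in parentheses. A share near that of all genes is no result about the list. Among 17 genes of serine and one-carbon metabolism, 15 were higher and 0 lower on the deposited scale. Psph, Shmt2 and Tdh among others were higher on all 4 scales (23.5%). Among 20 targets of hypoxia-inducible factor, 16 were higher and 0 lower on the deposited scale. Bhlhe40, Ldha and P4ha2 were higher on all 4 scales (15%). Among 24 p53 targets and apoptosis genes, 21 were higher and 0 lower on the deposited scale, and 4 and 8 after median-ratio scaling. Bcl2l1 and Bid were higher on all 4 scales (8.33%). Among 24 genes of cholesterol synthesis, 22 were higher and 1 lower on the deposited scale. Dhcr7, Insig1 and Stard4 were higher (12.5%) and Srebf2 lower (4.17%) on all 4 scales. Among 18 genes of fatty acid oxidation, 15 were higher and 1 lower on the deposited scale. Acads, Acadvl, Cpt2 and Etfdh were higher (22.2%) and Hadh lower (5.56%) on all 4 scales. Among 28 genes of lysosomes and autophagy, 18 were higher and 4 lower on the deposited scale. Atp6v0d1, Ctsz, Gla and Mcoln1 were higher (14.3%) and Lamp1 lower (3.57%) on all 4 scales. Of 22 nucleotide synthesis genes, 15 were higher and 1 lower, with Dhodh, Impdh1 and Pfas higher on all 4 scales (13.6%). Mitochondrial stress and quality control genes gave 12 higher and 1 lower of 17. Dnaja3, Lonp1 and Spg7 were higher (17.6%) and Hspe1 lower (5.88%) on all 4 scales. All 14 amino acid transport genes were higher on the deposited scale, and Slc7a3, Slc7a5 and Slc7a7 were higher on all 4 scales (21.4%). Chromatin and DNA methylation genes gave 26 higher and 0 lower of 27, with Dnmt3a, Kdm6b and Setdb1 higher on all 4 scales (11.1%). Maternal oocyte transcripts gave 9 higher and 2 lower of 13. Bpgm, Omt2b, Tcl1 and Tle6 were higher (30.8%) and Zar1 lower (7.69%) on all 4 scales. Of 5 transcripts of genome activation tested, 4 were higher and 1 lower, with Zfp54 higher (20%) and Dppa2 lower (20%) on all 4 scales. The 3 cumulus and granulosa cell markers tested were higher on the deposited scale and none stood on all 4 scales, and 0 sperm and 0 blood cell markers passed the filter. Of 16 imprinted genes tested, 15 were higher and 0 lower, with H19, Igf2 and Sgce higher on all 4 scales (18.8%).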

How the data were processed

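Whole-embryo Smart-seq2 libraries were aligned by the submitters with STAR 2.6.1d to mm10, per the submitters' processing notes. The deposited values are CPM with an offset of 0.0001, in 1 table of 37394 genes and 91 columns. Columns were matched to samples by their descriptions, 6 matched none and were not used, and 26 entries with numeric names (0.0498% to 0.174% of a library) were left out. Each library's depth was taken from the smallest step of its values. Whole reads could not be recovered (72.4% to 74.7% of values of at most 20 reads lay within 0.1 of a whole number), so limma, the planned test for CPM, was used and no count test. Intervals from depth cover counting error only.

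Genes above 1 CPM in at least 3 of the 13 blastocyst libraries were fitted as log2(CPM + 1) with limma 3.58.1 (R 4.3.3; 3 groups, mean trend, two-sided, Benjamini-Hochberg at 0.05 over all genes tested). The log2 scale understates changes of low genes. Library-wide measures were compared by exact two-sided permutation. Other steps used Python 3.11.15 (matplotlib 3.10.9, scipy 1.17.1, pandas 2.3.3, numpy 2.4.6). Alternatives were a pseudocount of 0.1, no filter, 2 groups, a replicate block, median-ratio scaling, quantile scaling, CPM without mitochondrially encoded genes, removal of a length trend, and leaving out each library. The criterion of 4 scales was set after the general shift was seen. Members, the 42 lists and tests were chosen with earlier results of these data known, so no list is independent evidence.

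The naming rule took the 10 genes that rose and the 10 that fell most (at least 20 CPM in the higher group, groups not overlapping), up to 3 members per list and direction with at least 3 calls, all members of 4 metabolic and MYC lists, and 9 lineage genes. The text picks from these by role, and Asns was added. Squared differences between replicate libraries were 4.63 to 27.7 times what counting alone gives, over 22 pairs. No pair therefore differed by counting alone, but separate libraries made from the same embryos cannot be told from independent ones. The procedure was tested on simulated data. Some genes are not reported here. Annotation is GENCODE vM21 (GRCm38), matching 36810 of 37368 genes, and promoters are RefSeq, GRCm38.p6.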

Additional observations from a re-analysis of the deposited data

Results flagged for a closer look

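Libraries were flagged where 1 value of a group lay far from the others, by Dixon's gap over the range of the group, for the genes and library-wide measures reported. Of 240 groups of values tested, 15 were flagged, and chance flags about 1 in 20. None of the library-wide measures was flagged.

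In no pyruvate blastocysts, library 5 had Eef1a1 at 2932 CPM, with the others of its group at 2139 to 2339 CPM. Library 1 had Pou5f1 at 94.6 CPM, with the others of its group at 52.9 to 63.5 CPM, and Tsix at 19.4 CPM, with the others of its group at 3.03 to 7.74 CPM. Slc40a1 was at 63.3 CPM, with the others of its group at 7.22 to 23.1 CPM, in library 3. In library 4, Pfas was at 312 CPM, with the others of its group at 119.9 to 174 CPM. Library 2 was the low one for Jup, at 73.3 CPM, with the others of its group at 108 to 118 CPM. Among no lactate blastocysts, library 4 had Nanog at 180.0 CPM, with the others of its group at 87.6 to 100.5 CPM, and Ubald1 at 3.68 CPM, with the others of its group at 8.06 to 8.93 CPM.

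The other flags fell in standard blastocysts. Library 4 had mt-Nd3 at 299 CPM, with the others of its group at 9.46 to 29.3 CPM, and Tsix at 188 CPM, with the others of its group at 3.97 to 10.2 CPM. Library 2 had Tdh at 33.9 CPM, with the others of its group at 7.44 to 10.5 CPM, Lama1 at 130.2 CPM, with the others of its group at 29.3 to 45.2 CPM, Sf3a2 at 3.65 CPM, with the others of its group at 0.292 to 0.611 CPM, and Mcm2 at 125 CPM, with the others of its group at 30.3 to 37 CPM. In library 3, Mycn was at 26.5 CPM, with the others of its group at 20.1 to 20.7 CPM.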

How the results depend on the processing

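On the deposited scale 12701 genes were called between no pyruvate and no lactate blastocysts. The counts were 7628, 6468 and 7079 after median-ratio scaling, quantile scaling and length correction, split into 3974 higher and 3654 lower, 3662 and 2806, and 3633 and 3446. Without a filter 15678 of 31961 genes passed, and leaving out 1 library gave 12339 to 12784. For no pyruvate against standard blastocysts the 3 rescalings gave 8047, 6651 and 7082 in place of 12588. For no lactate against standard blastocysts 3330 genes passed, 2193 without a filter and 2086 to 4465 with 1 library left out, lowest without no lactate library 2 and highest without standard library 4. The stage position difference turned to 0.0496, 0.115 and 0.0609 after median-ratio scaling, after quantile scaling and over genes at least 4-fold different, and with 1 library left out lay between -0.0961 and -0.0146, past the threshold without standard library 2. The cause of these differences was not tested.

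Of 77 genes checked here, these log2 changes turned sign: -1.18 for Pdha1, -1.08 for Pdhb, -0.16 for Slc16a1, -0.13 for Gata3, -0.90 for Pou5f1 and -0.042 for Gata6 after median-ratio scaling. After quantile scaling they were 0.12 for mt-Cytb, 0.65 for mt-Co1, -0.11 for Slc16a1, -0.72 for Pou5f1 and -0.031 for Sox2. With the length trend removed they were -1.11 for Pdha1, -1.02 for Pdhb, -0.15 for Slc16a1, -0.067 for Gata3, -0.71 for Pou5f1 and -0.068 for Gata6. Recomputing CPM without mitochondrially encoded genes gave -0.040 for Pdha1. With 1 library left out, mt-Co1 lay between -0.84 (without no lactate library 3) and 0.010 (without no lactate library 1), Pdha1 between -0.014 (library 3) and 0.16 (library 4), and Mpc1 between -0.12 (library 4) and 0.051 (library 2). The shares of the 100 highest and the mitochondrially encoded genes kept direction and side of the threshold under the alternatives run. Libraries with the same number correlated between -0.208 and 0.118, so the numbers do not pair them, and a replicate block gave 12516 calls. Leaving out standard libraries was chosen after seeing the data. Tests on counts were not run, because whole reads could not be recovered. Counting alone gives a relative SD of 24.2 to 30.8% at 1 CPM in no pyruvate libraries and 18.8 to 24% in no lactate libraries.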
